A study of Mus musculus with 8 samples.

Results

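The genes described here encode the transport machinery of the primary cilium: the intraflagellar transport (IFT) trains and their motors, the BBSome with its assembly chaperonins, and 4 proteins that govern signaling or entry at the cilium. The rule that picked them reads symbols and no values: it takes every gene whose symbol begins with Ift or Bbs and a digit or with Dync2, plus Bbip1, Kif3a, Kif3b, Kif3c, Kif7, Kif17, Wdr19, Wdr35, Traf3ip1, Ttc21b, Arl13b, Tulp3 and Cep290. This gave 37 of the 25239 gene symbols that were counted. Subunits with other symbols, such as Cluap1 and Ttc8, are described separately.

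RNA-Seq was performed on 8 livers of adult male mice that carried floxed Smo alleles (Smo fl/fl, strain background C57Bl6/J). All were fed CDA-HFD for 6 weeks, a diet that lacks choline, supplies protein as L-amino acids and draws 60% of its kcal from fat. During the final week, 4 mice carried AAV8-TBG-Luciferase (control) and 4 carried AAV8-TBG-Cre Recombinase (Smo-KO), given 1 week before the livers were taken. The sample labels list the control genotype as WT, whereas the design text gives floxed Smo alleles in both groups. The TBG promoter is active in hepatocytes, so other liver cells were expected to keep an intact Smo gene, and whole tissue was sequenced. In such bulk samples, fewer cells of a type and less RNA per cell cannot be told apart.

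The primary cilium is a single antenna that protrudes from the cell surface. IFT-B trains driven by kinesin-2 carry cargo to its tip, IFT-A trains driven by dynein-2 return it, and the BBSome loads membrane proteins for export. In vertebrates Smoothened acts at this organelle, and loss of IFT or of Kif7 disturbs the processing of Gli factors. In the liver, primary cilia are best known from cholangiocytes, where they sense bile flow. In adult hepatocytes they have been seen in only a small share of cells at a time. The study calls their significance there debated and allows that they may be undercounted.

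The promoters of many cilium genes carry an X-box, the sequence bound by RFX transcription factors. The promoters of 4 members are shown because they hold such a match before the start of the gene given by RefSeq. The letters searched were GTNNCC, then 1 to 3 bases of any kind, then GGNNAC, a palindromic pattern that reads the same on both strands, in RefSeq windows (GRCm38.p6) from 250 bases before to 50 bases after each start. Windows were matched by symbol for 33 of the 37 members, and not for Dync2li1, Ift122, Ift80 and Ift81. Each sequence is written 5′ to 3′ on the strand of its gene, with the match in capitals.
Bbs7, minus strand, chr3:36613489-36613518: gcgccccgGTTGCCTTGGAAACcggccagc
Wdr19, plus strand, chr5:65199654-65199683: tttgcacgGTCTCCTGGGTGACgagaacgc
Ift22, plus strand, chr5:136908079-136908108: ctgtcaggGTTTCCTGGGCTACtgcgcagc
Ift22, plus strand, chr5:136908109-136908138: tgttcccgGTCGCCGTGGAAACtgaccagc
Ift57, plus strand, chr16:49699199-49699228: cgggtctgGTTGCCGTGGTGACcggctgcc
Ift57, plus strand, chr16:49699226-49699254: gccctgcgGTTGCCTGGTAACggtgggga

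Ift22 and Ift57, both IFT-B subunits, held 2 matches each, and the windows of Bbs4 and Bbs1 held a match just past the start. The GENCODE annotation starts Ift57 at chr16:49699233, so its second match lies just past that start. With these, 6 of 33 member promoters (18.2%) contained the pattern, against 1082 of 27025 genes with a window (4.00%) and 477 of 10348 genes among those tested for expression (4.61%). The member windows were also richer in G and C, with a median of 62% against 52.8% for all genes and 60.3% for tested genes. Of the transition zone genes, which form the gate at the base of the cilium, 9 of 17 held the pattern (52.9%). The share was 3 of 17 (17.6%) for other IFT, BBSome and motor subunits and 3 of 19 (15.8%) for basal body and cilium assembly genes. For ciliary membrane proteins it was 2 of 14 (14.3%). It was 3 of 11 (27.3%) for motile cilium genes, 1 of 6 (16.7%) for RFX and FOXJ1 factors and 0 of 10 for Hedgehog pathway genes. Among the cell type markers described below, 1 of 6 stellate cell and fibroblast genes held the pattern (16.7%), and the other marker lists had 0%. In lists this short, 1 gene moves the share widely. A match of letters describes the sequence and is not evidence of a bound site, and 27025 genes include many that the liver does not express.

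Reads assigned to genes numbered 9177277, 9394970, 9891102 and 9999732 in control livers 1 to 4 and 9543675, 9367795, 8203299 and 9445427 in Smo-KO livers 1 to 4, and the difference in mean had p = 0.257 in an exact two-sided permutation test. The smallest p this test can give for 4 livers against 4 is 0.0286. Levels are given as CPM, the reads of a gene per 1e6 reads, on library sizes scaled by trimmed means (TMM), where 3 reads corresponded to 0.297 to 0.366 CPM. The 37 members together took between 3404 and 4379 reads of a liver, which was 0.0421% ± 0.00131 of all gene reads for the control group and 0.0422% ± 0.00115 for the Smo-KO group (mean ± SD, n = 4).

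Smo itself, the targeted gene, was examined first. Its level was 8.17, 8.49, 8.74 and 8.21 CPM in control livers and 5.67, 3.93, 4.27 and 4.37 CPM in Smo-KO livers. Every Smo-KO liver lay below every control liver, although Smo reads remained in all of them. The log2 fold change was −0.88 ± 0.16 (SE), and the p adjusted by Benjamini-Hochberg over 12977 genes was 0.0957 (edgeR, quasi-likelihood) and 0.00646 (DESeq2).

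The cilium transport genes showed no difference that passed the test. Of the 37 members, 36 were abundant enough to be tested. By edgeR, 0 of 36 had an adjusted p under 0.05, as did 0 of all 12977 genes tested (0%). At an unadjusted p under 0.05, 0 members were lower in Smo-KO livers, where 7.15% of all genes were, and 0 were higher, where 6.7% were. In 0 members did the 4 control and 4 Smo-KO livers separate without overlap, compared with 4.34% of all genes that separated with Smo-KO lower and 3.03% with Smo-KO higher. DESeq2 gave 0 members with an adjusted p under 0.05, while it called 1.29% of all genes, and 0 members with an unadjusted p under 0.05.

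The direction of the members was evenly divided, with 18 below and 18 above a log2 fold change of 0. Their median was 0.0022, beside −0.00084 for all genes tested. The fold changes ran from −0.45 for Ttc21b to 0.44 for Bbs12. Summed over all members, the level was 422.7, 412.4, 415.5 and 433.1 CPM in control livers and 419.9, 420.0, 415.1 and 439.3 CPM in Smo-KO livers. The ranges of both groups overlapped almost entirely, and the highest liver of each was its replicate 4.

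The intervals were wider for members with fewer reads. The median half-width of the 95% interval on the log2 scale was 0.27 for the 13 members with at least 10 CPM on average, 0.39 for the 12 members between 5 and 10 CPM and 0.55 for the 11 tested members below 5 CPM. It was under log2 of 1.5 in all but 1 of the 36, Bbs1. Whether an interval stays inside 1.5-fold also depends on its estimate. The interval lay within 1.5-fold in either direction for 23 of 36 members (63.9%), beside 70.8% of all genes tested. This held for all 13 members of the highest class, for 9 of 12 in the middle class and for 1 of 11 in the lowest, where a member had 139 to 342 reads over the 8 livers. For the other 10 of these a change of 1.5-fold in at least 1 direction lay inside the interval.

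**Figure D1:**
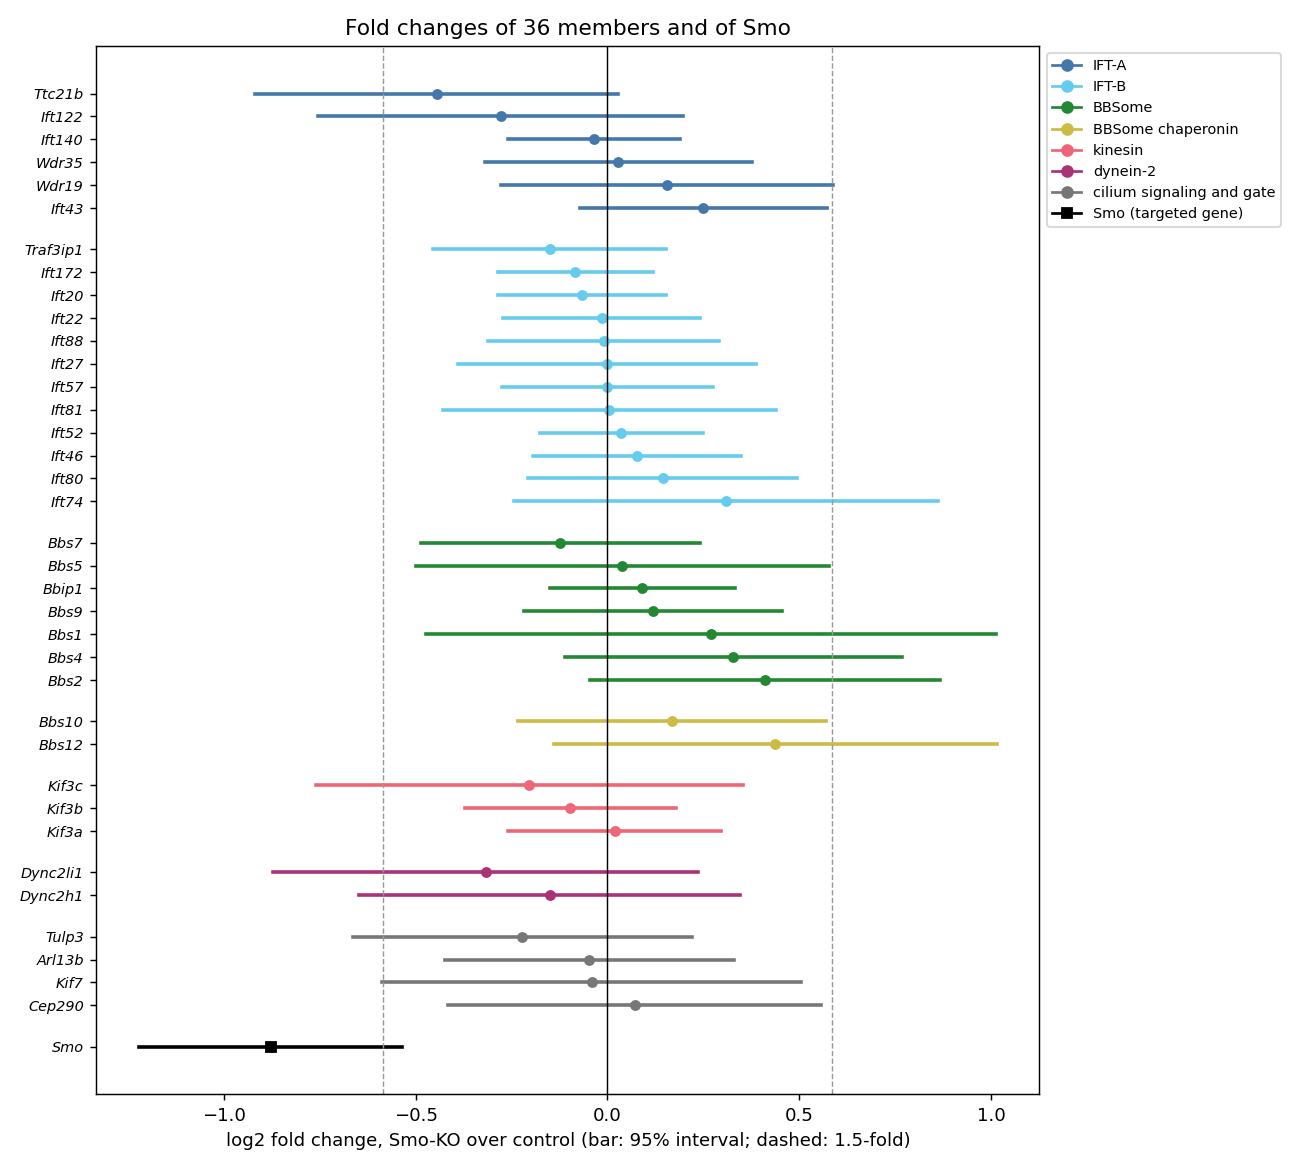
Log2 fold change of Smo-KO over control for the 36 tested members, colored by role, and for Smo; points are edgeR estimates from 4 livers per group, bars are 95% intervals, and dashed lines mark 1.5-fold. The bar of every member crosses 0, and the bar of Smo lies wholly below it.

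The members differed far more from one another than between the groups. On a scale of CPM per kb of the longest transcript, Ift20 stood highest at a mean of 47.2 over the 8 livers (range 40.9–53.5). Its range did not meet that of any other member. It encodes the IFT-B subunit that also resides at the Golgi and helps to route membrane cargo to the cilium.

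Next in order on the same scale came Ift52, a core IFT-B subunit, at 16.8 CPM per kb (14.6–18.5). Ift46, an IFT-B subunit that helps to keep the complex stable, followed at 14.4 (11.9–16.5), and the small BBSome subunit Bbip1 at 11.5 (9.82–13.8). Each of these overlapped its neighbor in the order. Ift27, a Rab-like GTPase of IFT-B that takes part in BBSome export, reached 9.02 CPM per kb (6.75–11.5), and the IFT-A subunit Ift43 reached 8.92 (6.76–10.5), so the 2 could not be ranked against each other.

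On this scale there was a gap below these 6 genes. Their lowest value in any liver was 6.75 CPM per kb, whereas the highest value of the other 30 tested members was 4.93, and the 6 genes took 47.0% of the summed CPM of all members. With the merged exons of each gene as its length, the order of the first 6 was identical but the gap was gone, since their lowest value was 3.43 CPM per kb and the highest of the others 4.43. By longest transcript, the low end held Kif7 (0.546 CPM per kb), Bbs1 (0.329), Kif3c (0.295) and the dynein-2 heavy chain Dync2h1 (0.241). By merged exons, Kif7 ranked 29 of the 37 members.

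Subunits that work in 1 complex were thus recorded at unequal mRNA levels per length. The highest subunit exceeded the lowest by 46.3-fold in IFT-B, where Ift80 stood at 1.02 CPM per kb. The corresponding ratio was 34.9-fold in the BBSome and 14.1-fold in IFT-A, between Ift43 and Ttc21b. With merged exons as the length these ratios were 57.8-fold, 23.0-fold and 11.4-fold, between the same pairs of genes.

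**Figure D2:**
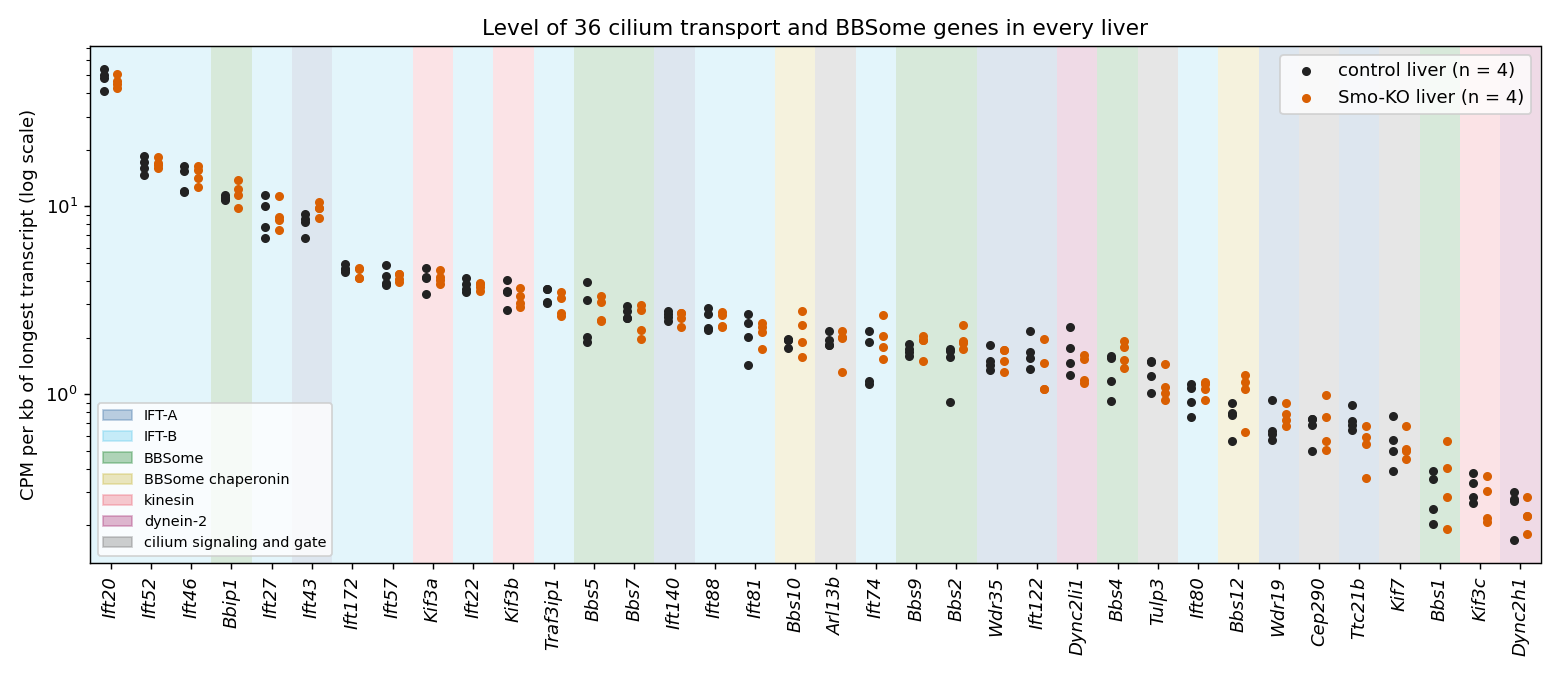
Level of each tested member in CPM per kb of its longest transcript on a log axis, ordered by level and shaded by role; each point is 1 liver, control and Smo-KO in separate colors. Ift20 lies above all other members, and the control and Smo-KO livers of each gene overlap.

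IFT-B, the complex of outward transport, accounted for most of the reads. Its 12 members summed to 253 ± 10.98 CPM in control and 254 ± 10.4 CPM in Smo-KO livers, with 7 members below and 5 above 0. The intervals of 11 of 12 lay within 1.5-fold. Ift20 measured 62.5, 47.7, 58.4 and 56.6 CPM in control livers and 53.9, 49.95, 52.3 and 58.8 CPM in Smo-KO livers. All 4 Smo-KO values fell inside the control range, and the log2 fold change was −0.07 (95% interval −0.29 to 0.15, adjusted p = 0.810 by edgeR).

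Ift88, whose loss abolishes cilia in many mouse tissues, was present at 9.30, 12.2, 11.2 and 9.50 CPM in control livers. In Smo-KO livers it was present at 9.69, 11.1, 11.6 and 9.59 CPM. These ranges coincided, with a log2 fold change of −0.0094 (−0.31 to 0.29, adjusted p = 0.986 by edgeR). Ift57 and Ift22, which carry the paired X-box matches shown above, were similarly even. Ift57 ran from 9.89 to 12.7 CPM in control and from 10.3 to 11.3 CPM in Smo-KO livers, and Ift22 from 10.7 to 12.8 CPM and from 10.9 to 11.95 CPM.

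Ift46 varied most between livers of the same group relative to its reads. It reached 68.6, 50.3, 49.8 and 64.5 CPM in control livers and 65.3, 53.0, 59.3 and 68.4 CPM in Smo-KO livers. The variance within groups was 11.1 times what counting alone gives, against a median of 1.47 over the 36 members. High and low livers occurred in both groups, and the log2 fold change was 0.08 (−0.19 to 0.35, adjusted p = 0.820 by edgeR). Ift27 stood second on this ratio, at 6.13, with 15.8, 10.6, 12.2 and 18.1 CPM in control and 13.3, 13.7, 11.7 and 17.8 CPM in Smo-KO livers. Both genes were above their group mean in control livers 1 and 4 and in Smo-KO liver 4.

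IFT-A carries cargo back from the tip and also brings membrane receptors into the cilium. Its 6 members summed to 47.9 ± 2.20 CPM in control and 47.0 ± 2.93 CPM in Smo-KO livers, and 3 lay below and 3 above 0. Ift43 measured 6.92, 7.13, 5.66 and 7.62 CPM in control livers and 8.25, 8.83, 8.17 and 7.25 CPM in Smo-KO livers. Of the Smo-KO livers, 3 lay above all controls and replicate 4 among them, and the log2 fold change of 0.25 (−0.07 to 0.57) did not pass the test (adjusted p = 0.482 by edgeR).

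Ttc21b, a peripheral IFT-A subunit known to restrain Hedgehog signaling, had the smallest p of any member by edgeR. Its level was 3.74, 4.19, 5.07 and 3.96 CPM in control livers and 2.06, 3.16, 3.90 and 3.41 CPM in Smo-KO livers. Smo-KO livers 1, 2 and 4 lay below all controls, while liver 3 overlapped them. The log2 fold change was −0.45 (−0.92 to 0.03), on 20 to 51 reads per liver, with an unadjusted p of 0.0630 and an adjusted p of 0.389 by edgeR. By DESeq2 the unadjusted p was 0.100 for Ttc21b and 0.0845 for Bbs2, the smallest of any member. Ift140, the most abundant IFT-A gene by CPM, was held in a narrower interval, with a log2 fold change of −0.03 (−0.26 to 0.19).

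The BBSome is the coat that gathers membrane proteins for removal from the cilium. Its 7 members summed to 49.1, 52.5, 53.0 and 53.3 CPM in control livers and 51.0, 58.0, 56.6 and 61.2 CPM in Smo-KO livers. Smo-KO livers 2 to 4 were above all controls and Smo-KO liver 1 was not. By gene, 6 of 7 had a log2 fold change above 0 and only Bbs7 lay below, with a median of 0.12. Of all 12977 genes tested, 6470 lay above 0. At an unadjusted p under 0.05 by edgeR, 0 of 7 were lower or higher, beside 7.15% lower and 6.7% higher among all genes. In a list of 7 genes, 0 is near those shares.

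Bbip1 made up 44.8% of the BBSome reads. It stood at 23.0, 24.4, 23.4 and 23.5 CPM in control livers, which were close together, and at 20.8, 24.2, 26.2 and 29.3 CPM in Smo-KO livers, which lay on both sides of them. The log2 fold change was 0.09 (−0.15 to 0.33, adjusted p = 0.757 by edgeR). Bbs2, a core subunit, had 5.22, 4.82, 2.78 and 5.34 CPM in control and 7.11, 5.89, 5.73 and 5.33 CPM in Smo-KO livers. Smo-KO liver 4 fell just within the control range, and the log2 fold change of 0.41 (−0.05 to 0.87) had an unadjusted p of 0.0741 and an adjusted p of 0.407 by edgeR.

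Bbs10 and Bbs12 encode chaperonin-like proteins that assemble the BBSome, and both lay above 0. Bbs10 measured 5.90, 5.98, 5.37 and 5.93 CPM in control livers and 5.77, 4.80, 8.41 and 7.14 CPM in Smo-KO livers. The Smo-KO livers were more spread and reached both the lowest and the highest value, with a log2 fold change of 0.17 (−0.23 to 0.57, adjusted p = 0.728 by edgeR). For Bbs12, at about 2 CPM, the log2 fold change was 0.44 (−0.14 to 1.01, adjusted p = 0.493 by edgeR).

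The motors gave no difference that passed the test. Kif3a, a motor subunit of kinesin-2, was at 13.2, 13.3, 10.7 and 14.8 CPM in control and 12.2, 12.8, 13.3 and 14.5 CPM in Smo-KO livers. All Smo-KO values lay inside the control range, and the log2 fold change was 0.02 (−0.26 to 0.30, adjusted p = 0.970 by edgeR). For Kif3c, 35.3% of the exonic bases are shared with 1110002L01Rik on the opposite strand in the GENCODE annotation. The strand setting of the counting is not given in the sources used here. The level of Kif3c and its log2 fold change of −0.20 are therefore uncertain.

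Kif17, which forms a kinesin-2 motor of its own, was the only member too low to test. It had 1, 1, 2 and 0 reads in control livers and 0 in each Smo-KO liver, at or below the 3 reads taken as the limit of detection in every library.

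Of dynein-2, which drives the return transport, both members lay below 0 and neither interval fell within 1.5-fold. Dync2li1, the light intermediate chain, was at 1.70, 1.99, 2.38 and 3.07 CPM in control livers and 1.55, 2.18, 2.07 and 1.60 CPM in Smo-KO livers. The ranges overlapped, with a log2 fold change of −0.32 (−0.87 to 0.24, adjusted p = 0.615 by edgeR). The heavy chain Dync2h1 had a log2 fold change of −0.15 (−0.65 to 0.35).

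The remaining 4 members govern signaling or entry at the cilium. Arl13b, a GTPase of the ciliary membrane, had 6.46, 7.65, 6.46 and 6.83 CPM in control and 7.01, 7.09, 4.63 and 7.68 CPM in Smo-KO livers. Only Smo-KO liver 3 was low, and the log2 fold change was −0.05 (−0.42 to 0.33, adjusted p = 0.933 by edgeR). Kif7, the kinesin that organizes the cilium tip and controls Gli processing, had 3.52, 2.62, 1.79 and 2.28 CPM in control and 3.09, 2.29, 2.07 and 2.35 CPM in Smo-KO livers. The Smo-KO livers again lay within the control range, with a log2 fold change of −0.04 (−0.59 to 0.50, adjusted p = 0.965 by edgeR).

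Tulp3, the adaptor that hands membrane receptors such as Gpr161 to IFT-A, had 4.54, 5.45, 5.37 and 3.66 CPM in control and 5.26, 3.38, 3.66 and 3.94 CPM in Smo-KO livers. Smo-KO livers 2 to 4 were in the lower part of the joint range and liver 1 was high, with a log2 fold change of −0.22 (−0.66 to 0.22, adjusted p = 0.666 by edgeR). Cep290, which builds the gate at the ciliary base, had 4.08, 6.08, 6.06 and 5.64 CPM in control and 4.64, 8.07, 6.22 and 4.16 CPM in Smo-KO livers. High and low livers were mixed between the groups, with a log2 fold change of 0.07 (−0.42 to 0.56, adjusted p = 0.920 by edgeR).

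**Figure D3:**
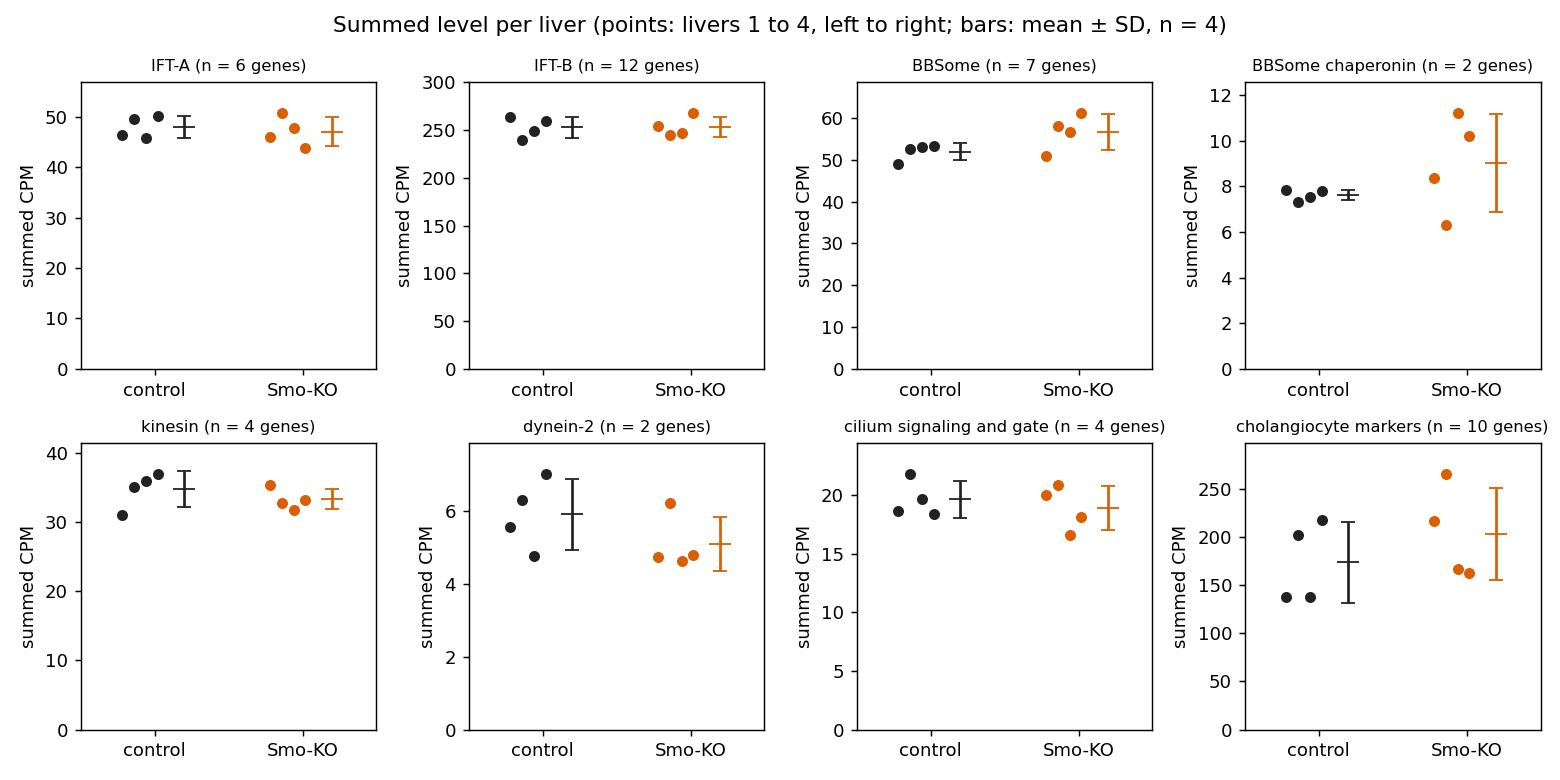
Summed CPM of the members of each role and of 10 cholangiocyte markers; each point is 1 liver, the bars give mean ± SD over 4 livers, and each axis starts at 0. Control and Smo-KO livers overlap in every panel, including the BBSome, where 3 Smo-KO livers are above all controls.

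Genes that act with these members but carry other symbols were compared in the same fit. Of 21 further IFT, BBSome and motor subunits, 20 were found and 18 tested, with 0 lower and 1 higher at an unadjusted p under 0.05, beside 7.15% and 6.7% of all genes. The gene was Cluap1, the IFT-B subunit also called IFT38. It measured 9.87, 8.81, 9.64 and 8.70 CPM in control and 11.5, 11.6, 13.4 and 10.2 CPM in Smo-KO livers. Every Smo-KO liver exceeded every control, as in 3.03% of all genes. The log2 fold change was 0.34 ± 0.13 (SE), but the adjusted p was 0.287 by edgeR.

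Of 20 transition zone genes, 18 were tested and 0 had an unadjusted p under 0.05 in either direction by edgeR. Without overlap, 0 were lower and 1 was higher, beside 4.34% and 3.03% of all genes. The gene was Tctn1, a protein of the ciliary gate. It measured 6.35, 6.61, 6.36 and 5.84 CPM in control and 7.32, 6.98, 7.20 and 7.36 CPM in Smo-KO livers. Its log2 fold change was 0.20 (adjusted p = 0.547 by edgeR). All 21 genes of the basal body and of cilium assembly were tested, with 1 lower and 2 higher at that threshold, again beside 7.15% and 6.7% of all genes, and none past the adjusted one by edgeR or DESeq2. Ccp110, which caps the mother centriole and restrains cilium formation, had a log2 fold change of 0.56 (adjusted p = 0.226 by edgeR). Odf2, a component of the centriole's appendages, had one of 0.31 (adjusted p = 0.358), and the kinase Mark4 one of −0.23 (adjusted p = 0.341).

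Among 14 tested genes for ciliary membrane proteins and their traffic, 0 were lower and 1 was higher at an unadjusted p under 0.05 (7.15% and 6.7% of all genes). Without overlap, 1 was lower and 1 higher (4.34% and 3.03% of all genes). Adcy6, an adenylyl cyclase that is also active at the plasma membrane, measured 48.2, 60.4, 40.4 and 44.5 CPM in control and 67.3, 76.1, 82.4 and 75.5 CPM in Smo-KO livers. The groups did not overlap, and the log2 fold change was 0.64 ± 0.12 (SE), with an adjusted p of 0.1004 by edgeR and 0.00105 by DESeq2. Adcy5, another adenylyl cyclase, measured 3.63, 3.15, 2.584 and 2.97 CPM in control and 2.577, 2.51, 2.20 and 1.81 CPM in Smo-KO livers. The groups separated only narrowly, and the log2 fold change was −0.43 (adjusted p = 0.394 by edgeR).

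Foxj1 and the RFX family, of which some members control cilium genes, were also measured. Of 6 RFX genes tested, Rfx4 alone had an unadjusted p under 0.05, where 6.7% of all genes were higher (log2 fold change 0.47, adjusted p = 0.346 by edgeR). Rfx3, a regulator of primary cilium genes, had a log2 fold change of −0.34 (adjusted p = 0.579 by edgeR). Foxj1, the regulator of motile cilia, was too low to test, and of 13 motile cilium genes found only Ccdc39 passed the filter.

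Ptch1, the Hedgehog receptor and a target of the pathway, was measured as well. It was at 17.4, 23.5, 21.5 and 17.9 CPM in control and 23.0, 28.4, 27.7 and 24.8 CPM in Smo-KO livers, which overlapped in 1 liver. Its log2 fold change was 0.37 (adjusted p = 0.234 by edgeR).

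Because cilia in the liver are known mainly from cholangiocytes, markers of these and of other cells were compared. Alb, the main secreted protein of hepatocytes, ranged from 14262 to 17680 CPM over the 8 livers. The 10 cholangiocyte markers summed to 138.0, 202.5, 137.8 and 217.4 CPM in control and 216.5, 265.6, 167.2 and 163.0 CPM in Smo-KO livers. The groups overlapped, and Spp1, which other cells also express, made up 74.2% of the sum. By edgeR, 0 of 8 tested markers had an unadjusted p under 0.05 in either direction, beside 7.15% lower and 6.7% higher among all genes. By sign, 6 of 8 lay above 0 and 2 below, with a median log2 fold change of 0.225. Krt19, the defining keratin, was at 4.08, 3.46, 2.19 and 3.26 CPM in control and 4.43, 4.47, 1.95 and 3.52 CPM in Smo-KO livers, while Cftr had at most 14 reads per liver and was not tested.

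Of the 8 lymphocyte markers tested, 5 were lower at an unadjusted p under 0.05 (7.15% of all genes) and 2 of them, Cd3e and Cd8a, separated the groups without overlap (4.34% of all genes). By sign, 7 of 8 lay below 0. Cd4, whose groups overlapped, had a log2 fold change of −1.09 (adjusted p = 0.217 by edgeR and 0.140 by DESeq2). The smallest adjusted p was 0.116 by edgeR, for Cd8a, whereas DESeq2 gave adjusted p-values under 0.05 for Cd8a (0.0153), Nkg7 (0.0129) and Cd3e (0.0424). The sum of the list was 47.0, 44.3, 40.5 and 55.6 CPM in control and 25.3, 20.2, 37.0 and 32.3 CPM in Smo-KO livers.

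At the same unadjusted threshold, 1 of 10 hepatocyte markers (Cps1), 2 of 10 stellate cell markers (Ngfr and Col1a1) and 1 of 10 endothelial markers (Pecam1) were lower and none of these 3 lists had a marker that was higher, beside 7.15% lower and 6.7% higher among all genes. Of these markers, Ngfr alone had an adjusted p under 0.05 in DESeq2 (0.0134, against 0.140 by edgeR). By sign alone, 4 of 10 hepatocyte and 5 of 10 stellate cell markers lay above 0, with Cyp2e1 at 0.24 and Acta2 at 0.36, as did 1 of 10 endothelial markers. Of 10 macrophage markers, 0 passed in either direction by edgeR. The part of these cell types in the members' levels was not tested.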

How the data were processed

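Whole-liver RNA was sequenced in 4 control and 4 Smo-KO mice. The authors deposited raw read counts per gene symbol, 1 file per liver. The submitters' notes name fastp, STAR 2.7.5, featureCounts 2.0.1 and GRCm38, whereas the deposited files end with entries in the form of htseq-count, so the counter is uncertain. Annotation and strand setting are not given in the sources used here. Reads with no feature made up 8.33% ± 0.743 (control) and 9.23% ± 0.330 (Smo-KO) and were left out of library sizes. Counts were fitted with edgeR 4.0.16 in R 4.3.3 (TMM scaling, filterByExpr, quasi-likelihood F test, two-sided, Benjamini-Hochberg over 12977 genes), and scripts were tested on simulated data. Alternatives were DESeq2 1.42.0, RLE size factors, other filters, a replicate block and each liver left out. Lengths came from GENCODE M21. Each liver is 1 mouse per the study.

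The members and gene lists were chosen with earlier results of these data known. Named genes were Smo, members with an unadjusted p under 0.05 or without overlap (none), the member with the highest level per kb in each role, and Ift88, Kif3a, Kif7, Arl13b, Tulp3 and Cep290. From each further list, genes with an unadjusted p under 0.05 were named, at most 4. Some results of the Hedgehog pathway and cholangiocyte lists are not reported here. All other genes named, among them Ttc21b, Bbs2, Bbs12, Ift46, Ift27, Ift52, Ift140, Kif3c, Kif17, Dync2h1, Rfx3, Adcy5, Tctn1, Krt19, Alb, Cyp2e1, Acta2 and the X-box genes, were chosen after their values were seen.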

Additional observations from a re-analysis of the deposited data

Results flagged for a closer look

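In 4 of 116 groups of 4 livers, 1 value stood far from the other 3 relative to the group's whole range, where chance flags about 1 in 20 groups. Bbs10 was lowest in control liver 3 at 5.37 CPM, beside 5.90 to 5.98 CPM in the other controls. The summed dynein-2 genes were highest in Smo-KO liver 2 at 6.22 CPM, beside 4.63 to 4.80 CPM. The summed genes for ciliary membrane proteins and their traffic were highest in control liver 2 at 281.6 CPM, beside 242.1 to 248.4 CPM. The summed Hedgehog pathway genes were lowest in control liver 3 at 70.6 CPM, beside 84.5 to 86.3 CPM.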

How the results depend on the processing

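No member had an adjusted p under 0.05 under any of 13 alternatives, and the lowest was 0.306. The count of all genes at that threshold was 0 by edgeR, 167 by DESeq2, 61 with no filter on low counts, 8 with the replicate number as a block, and 0 to 78 with each liver left out (78 without Smo-KO liver 1, 5 without control liver 1, 4 without Smo-KO liver 3). Members lower in Smo-KO livers at an unadjusted p under 0.05 numbered 0, but 1 with no filter (Kif17, on 4 reads in total), 1 with the replicate block (Ttc21b, adjusted p = 0.306 by edgeR) and 0 to 1 with each liver left out (Ift122 without Smo-KO liver 2, Ttc21b without Smo-KO liver 3). Members higher numbered 0, and 0 to 1 with each liver left out (Bbs12 without Smo-KO liver 2). The members' median log2 fold change of 0.0022 ranged from −0.027 to 0.034 with each liver left out. The deviations of same-numbered livers from their group means correlated at 0.104, 0.187, 0.0611 and 0.113, the third under the 0.1 required here of every pair, and 5 of 8 livers correlated best with their own number. The block is therefore given only here. Of the 11 named members, 5 changed sign under some alternative, all without passing the test. Smo, Adcy6, Ngfr, Cd8a, Nkg7 and Cd3e had an adjusted p under 0.05 in DESeq2, and Smo and Adcy6 also with no filter and without Smo-KO liver 1. Intervals were widest for the 11 tested members below 5 CPM, with a median half-width of 0.55 on the log2 scale.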
